A study of Arabidopsis thaliana with 29 samples.

Results

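The transcript levels of Arabidopsis leaves were compared 6 hours after a spray with AMF1β and 6 hours after a spray with the solvent DMSO. The 3 AMF1β and the 3 DMSO libraries of that time were chosen by their labels, as 6 of the 29 RNA sequencing libraries of the series, and every gene of the table was followed. The treated plants were Col-0, 3 weeks of age and raised in soil, and received a spray of 10 μM AMF1, which the study calls AMF1β, and the control plants were of the same ecotype and age and received DMSO. Both groups are leaf tissue of wild-type plants with their own ABA, and neither carries a transgene. Nothing in the labels says that the 3 libraries of a group came from separate plants. The p-values below rest on the spread between libraries of the same group, pooled over the 12 groups of the series. The other libraries are from leaves treated with ABA, AMF1β, AMF4 or DMSO for 6, 24 or 72 h, and they served to estimate the spread and for side comparisons.

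Abscisic acid (ABA) is the hormone with which plants slow water loss and protect cells when water is short. It binds receptors of the PYR/PYL family, and the receptor with its ligand blocks the clade A protein phosphatases 2C (PP2Cs). With the phosphatases blocked, SnRK2 protein kinases become active and phosphorylate bZIP transcription factors such as the ABFs, which bind the ABA response element in the promoters of ABA-induced genes. In leaves the pathway is known for stomatal closure, for dehydrin and other late embryogenesis abundant (LEA) proteins, for leaf senescence and for restrained growth. AM1 is a synthetic compound that takes the place of ABA in the receptor, and AMF1β is a derivative of AM1 with a fluorine atom on its methylbenzyl ring.

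The promoters of 4 genes that rose with AMF1β are shown first because they carry the letters of the ABA response element, written ACGTGGC or ACGTGTC and searched on both strands. Each is the 250 bases before the gene start, 5′ to 3′ on the strand of the gene, taken by gene identifier from the RefSeq annotation of TAIR10.1, with the element in capitals.
LEA7, chr1:19619474-19619723, plus strand: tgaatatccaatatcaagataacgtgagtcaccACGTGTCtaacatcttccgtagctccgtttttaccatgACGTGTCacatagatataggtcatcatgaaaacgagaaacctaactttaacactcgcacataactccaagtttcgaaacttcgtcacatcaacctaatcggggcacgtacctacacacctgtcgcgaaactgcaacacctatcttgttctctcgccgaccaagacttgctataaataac
AT3G17520, chr3:6000448-6000697, minus strand: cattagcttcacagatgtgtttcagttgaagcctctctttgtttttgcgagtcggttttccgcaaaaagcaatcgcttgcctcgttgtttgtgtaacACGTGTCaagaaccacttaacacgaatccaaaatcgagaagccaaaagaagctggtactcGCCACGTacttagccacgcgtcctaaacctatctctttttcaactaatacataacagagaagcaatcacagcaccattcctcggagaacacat
LEA4-5, chr5:2090431-2090680, minus strand: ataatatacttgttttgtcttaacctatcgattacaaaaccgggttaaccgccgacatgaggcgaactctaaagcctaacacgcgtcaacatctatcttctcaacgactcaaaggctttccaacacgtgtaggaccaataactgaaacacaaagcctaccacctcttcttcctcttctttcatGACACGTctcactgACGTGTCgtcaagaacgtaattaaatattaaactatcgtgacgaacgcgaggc
RAB18, chr5:26519448-26519697, minus strand: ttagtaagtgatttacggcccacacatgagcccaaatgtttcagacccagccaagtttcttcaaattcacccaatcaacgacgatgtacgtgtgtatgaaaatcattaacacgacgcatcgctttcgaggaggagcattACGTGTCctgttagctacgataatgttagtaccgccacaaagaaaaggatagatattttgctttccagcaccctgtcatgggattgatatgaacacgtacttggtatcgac
LEA7, AT3G17520 and LEA4-5 held the element 2 times in this window and RAB18 held it 1 time. In LEA7 the first bases of the matches lay 217 and 179 bases before the gene start, in AT3G17520 153 and 93 bases, in LEA4-5 67 and 53 bases, and in RAB18 111 bases. The RAB18 window also holds 2 matches of another element, the site II element described next, which begin 234 and 222 bases before the gene start and are not capitalised. The windows of HAI1, HAI2, CYP707A2 and AT3G02480, which also rose, were searched as well and held no ABA response element.

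A pair of promoters of genes that fell with AMF1β is shown beside them, both of ribosomal proteins of the cytosol. Here the capitals mark the site II element, written TGGGCC or TGGGCT, again on both strands.
AT3G11120, chr3:3480770-3481019, plus strand: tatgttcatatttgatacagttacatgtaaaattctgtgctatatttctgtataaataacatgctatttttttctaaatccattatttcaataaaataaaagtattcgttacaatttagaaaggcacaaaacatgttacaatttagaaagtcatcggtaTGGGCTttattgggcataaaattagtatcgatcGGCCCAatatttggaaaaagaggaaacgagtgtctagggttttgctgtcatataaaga
AT2G20450, chr2:8813582-8813831, plus strand: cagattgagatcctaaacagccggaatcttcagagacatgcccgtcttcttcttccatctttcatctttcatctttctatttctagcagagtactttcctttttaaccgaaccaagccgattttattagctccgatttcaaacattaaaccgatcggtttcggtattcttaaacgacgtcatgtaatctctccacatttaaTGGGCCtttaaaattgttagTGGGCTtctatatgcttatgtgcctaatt
Each holds the site II element 2 times, beginning 91 and 58 bases before the gene start in AT3G11120 and 49 and 29 bases in AT2G20450. A match is a description of the sequence and was not tested as a binding site.

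The table gives FPKM, fragments scaled by transcript length and by the number of mapped fragments. The FPKM of all genes summed to between 876324 and 1002410 in the AMF1β libraries and to between 879409 and 1140080 in the DMSO libraries. Read totals are not in the table, and relative depth, estimated from the lowest FPKM above 0 with the median of the 29 libraries at 1, was 1.21 to 1.97 for AMF1β and 0.546 to 1.29 for DMSO. On the log2 scale the AMF1β libraries correlated with each other at 0.979 to 0.987, the DMSO libraries at 0.965 to 0.981, and libraries of different treatment at 0.936 to 0.956. In a principal component analysis of the 6 libraries, the first component (55.3% of the variance) separated the treatments and the second (18.9%) separated DMSO replicate 1 from DMSO replicate 3. The labelled tissue held: the 27 antenna, photosystem and Rubisco genes summed to 130300 to 157700 FPKM with AMF1β and 128600 to 193400 FPKM with DMSO. The shoot meristem and seed marker lists summed to at most 0.0974 FPKM in each of the 6 libraries, and of the floral genes only AG and of the root genes only SCR and SHR passed the filter below.

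Of the 33559 genes in the table, 18521 reached 1 FPKM in at least 2 libraries and were tested with limma on log2(FPKM + 1). Fold changes below are given on the same scale and are too small for genes near 1 FPKM. A gene was called when its adjusted p was under 0.05 and its fold change over 2 or under 0.5. By this rule 1105 genes changed with AMF1β, of which 498 rose (2.69% of the genes tested) and 607 fell (3.28%). The median log2 fold change was 1.37 among the genes that rose and -1.34 among those that fell, against 0.05 over all genes tested. Changes over 4-fold were more frequent upwards, with 83 genes against 36, and changes over 8-fold were made by 19 and 7 genes. All 3 AMF1β libraries lay beyond all 3 DMSO libraries for 485 of the genes that rose and 589 of those that fell, while 40.3% of all genes tested did so in either direction. Protein-coding genes made up 489 of the rises and 598 of the falls. Calls were scarce at low levels: 17 of 2920 genes with both means under 2 FPKM were called, and 868 of 9805 genes with a mean over 10 FPKM. In bulk leaf RNA a lower level can come from fewer cells of a type or from less RNA per cell, and these cannot be told apart here.

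**Figure D1:**
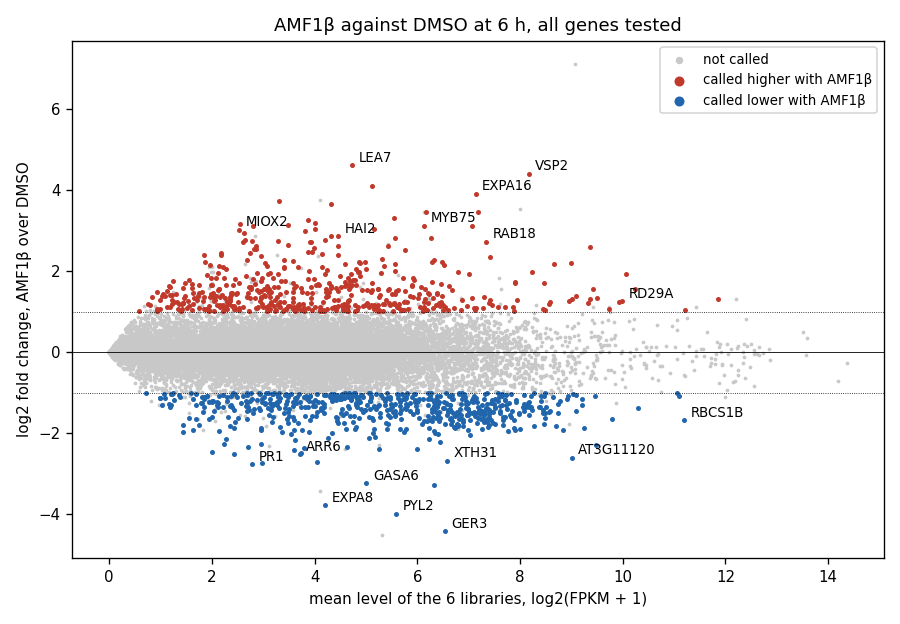
Log2 fold change of every tested gene, AMF1β over DMSO at 6 h (vertical axis, log2(FPKM + 1) scale), against log2 of its mean FPKM over the 6 libraries plus 1 (horizontal axis), with the 498 genes called higher and the 607 called lower in colour. Among the calls, rises reach log2 4.6 for LEA7 and falls reach log2 -4.41 for GER3. AT3G08520 and AT3G50825, listed at 0 in 4 of the 6 libraries, are not drawn.

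The genes with the largest rises included LEA proteins, a cell wall loosening protein and jasmonate-induced storage proteins. The largest rises and falls, here and where they recur below, were picked from calls without overlap between the groups. That the groups lie apart in them is a condition of the choice. LEA7 (AT1G52690), which protects proteins during drying, had 52.7, 62.1 and 34.5 FPKM in the AMF1β libraries, against 1.22, 0.312 and 1.90 FPKM in the DMSO libraries (log2 fold change 4.6, SE 0.47, limma adjusted p = 3.35e-06). All AMF1β libraries were far above all DMSO libraries. EXPA16 (AT3G55500), an expansin that loosens cell walls, had 279.7, 292 and 214 FPKM in the AMF1β libraries, against 14.8, 22.6 and 13.1 FPKM in the DMSO libraries (log2 fold change 3.91, SE 0.33, limma adjusted p = 7.88e-07), again with no overlap and with 3 AMF1β libraries close to each other. LBD1 (AT1G07900), a LOB domain transcription factor, had 32.3, 50.9 and 24.98 FPKM in the AMF1β libraries, against 1.72, 1.78 and 1.96 FPKM in the DMSO libraries (log2 fold change 3.66, SE 0.37, limma adjusted p = 3.35e-06). MIOX2 (AT2G19800), a myo-inositol oxygenase, had the smallest adjusted p of the table, with 9.37, 10.7 and 7.64 FPKM in the AMF1β libraries, against 0.0938, 0.121 and 0.613 FPKM in the DMSO libraries (log2 fold change 3.02, SE 0.18, limma adjusted p = 4.29e-09). It was nearly silent in DMSO leaves and of like level in the 3 AMF1β libraries. XTH24 (AT4G30270), a xyloglucan-modifying enzyme of the wall, had 295, 267 and 158 FPKM in the AMF1β libraries, against 24.96, 27.2 and 26.0 FPKM in the DMSO libraries (log2 fold change 3.11, SE 0.48, limma adjusted p = 0.000156), with no DMSO library above the lowest AMF1β library.

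The genes with the largest falls included a germin, an expansin and the receptor PYL2. GER3, EXPA8 and AT1G22690 were picked in the same way, so their lack of overlap is also a condition of the choice. GER3 (AT5G20630), a germin-like protein of the wall, had 1.23, 6.78 and 25.8 FPKM in the AMF1β libraries, against 106, 241 and 169 FPKM in the DMSO libraries (log2 fold change -4.41, SE 1.0, limma adjusted p = 0.00399). The groups did not overlap, but the 3 AMF1β libraries differed widely among themselves, and the call was lost when DMSO replicate 3 stood as the only control. EXPA8 (AT2G40610), another expansin, had 0.448, 0.876 and 3.25 FPKM in the AMF1β libraries, against 26.4, 17.7 and 55.9 FPKM in the DMSO libraries (log2 fold change -3.77, SE 0.63, limma adjusted p = 0.000302), with every DMSO library above every AMF1β library. AT1G22690, a gibberellin-regulated protein of the GASA family, had 19.1, 16.1 and 23.4 FPKM in the AMF1β libraries, against 107, 92.8 and 120.2 FPKM in the DMSO libraries (log2 fold change -2.4, SE 0.31, limma adjusted p = 4.02e-05). Its 6 libraries formed a tight low group with AMF1β and a tight high group with DMSO. Among the 20 largest falls that did not overlap were 3 thioredoxin or glutaredoxin family genes, AT4G15690, AT4G15700 and AT3G21460, with log2 fold changes of -2.45, -2.52 and -2.36. AT3G08520, a ribosomal protein L41, and AT3G50825, a small nucleolar RNA, were listed at 0 in every AMF1β library but also in DMSO replicate 1, so they are counted among the falls and no fold is given for them.

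In the ABA pathway itself, most of the tested phosphatases that restrain it rose and 2 receptors fell, while the kinases did not pass the call. Of the clade A PP2Cs, 7 of the 9 genes were tested and 6 rose, with a median log2 fold change of 1.70 over the 7. Beside this and every list count below for AMF1β against DMSO at 6 h stand the shares over all genes tested, 2.69% higher and 3.28% lower. A single call in a list is not read as a result about the list. HAI2 (AT1G07430) had 39.1, 47.8 and 26.6 FPKM in the AMF1β libraries, against 4.63, 4.09 and 3.94 FPKM in the DMSO libraries (log2 fold change 2.86, SE 0.30, limma adjusted p = 4.75e-06). Its DMSO values were nearly equal and its lowest AMF1β value was several times higher. PP2CA (AT3G11410) had 209, 239 and 158 FPKM in the AMF1β libraries, against 67.0, 50.5 and 39.8 FPKM in the DMSO libraries (log2 fold change 1.94, SE 0.21, limma adjusted p = 4.75e-06), which made it the most abundant PP2C of treated leaves. ABI1 and ABI2, the phosphatases first known from ABA-insensitive mutants, rose with log2 fold changes of 1.37 and 1.70. HAB2 was the only tested PP2C that was not called, with a log2 fold change of 0.91, under the fold threshold. These counts stayed at 6 when each library was left out in turn.

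Among the receptors, 8 of 14 genes were tested, 2 fell and 0 rose. PYL4 (AT2G38310) had 5.47, 2.59 and 7.98 FPKM in the AMF1β libraries, against 23.2, 21.5 and 22.1 FPKM in the DMSO libraries (log2 fold change -1.97, SE 0.27, limma adjusted p = 5.89e-05), and the DMSO values were almost identical while all AMF1β values were lower. PYL5 had a log2 fold change of -0.94 (limma adjusted p = 0.00399), short of the fold threshold. PYL9 had a log2 fold change of 0.86, also without a call. PYL2, the other receptor called, is taken up below with the clock genes. None of the 8 tested SnRK2 genes was called by limma (3 had an unadjusted p under 0.05), and OST1 (AT4G33950), the kinase of guard cells, had 16.1, 13.8 and 16.4 FPKM in the AMF1β libraries, against 13.5, 11.3 and 9.96 FPKM in the DMSO libraries (limma adjusted p = 0.0726).

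**Figure D2:**
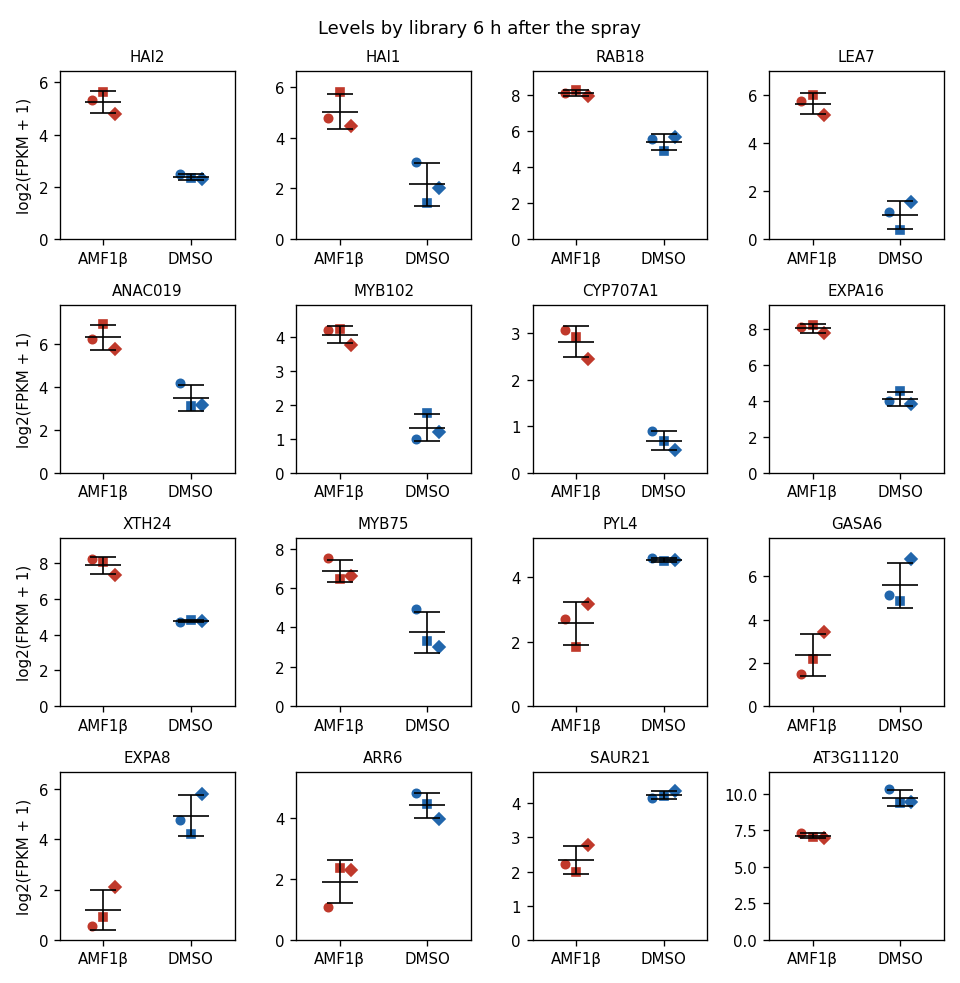
Level as log2(FPKM + 1), axis from 0, of 16 named genes in the 3 AMF1β libraries (left in each panel) and the 3 DMSO libraries (right) of 6 h, with circle, square and diamond for replicates 1, 2 and 3 and bars for the mean ± SD of the log2 values. The groups do not overlap in any of the 16 genes, as in 485 of the 498 genes called higher and 589 of the 607 called lower. Some of the 16 were picked for this.

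The transcription factors that act after the kinases rose in part. AFP1 (AT1G69260), an ABI5-binding protein that dampens ABA responses, had 26.3, 35.2 and 14.2 FPKM in the AMF1β libraries, against 5.43, 2.48 and 1.41 FPKM in the DMSO libraries (log2 fold change 2.7, SE 0.38, limma adjusted p = 6.08e-05). The spread within each group was wide, but the groups stayed apart. Of the 12 tested genes of the ABF, ABI5 and AFP list, 5 rose (AFP1, GBF3, ABF3, GBF2 and AFP3) and 0 fell. ABF3 (AT4G34000) had 57.5, 63.1 and 43.4 FPKM in the AMF1β libraries, against 24.04, 14.8 and 15.6 FPKM in the DMSO libraries (log2 fold change 1.55, SE 0.23, limma adjusted p = 0.000102), without overlap. ABF1, ABF2 and ABF4 had log2 fold changes of 0.34, 0.63 and 0.51, and ABI5 stayed at or under 2.06 FPKM.

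Of 14 tested NAC factors of stress and senescence, 7 rose and 0 fell, with a median log2 fold change of 0.89. ANAC019 (AT1G52890), an ABA- and jasmonate-induced factor, had 72.5, 118 and 53.6 FPKM in the AMF1β libraries, against 17.3, 7.69 and 7.83 FPKM in the DMSO libraries (log2 fold change 2.8, SE 0.36, limma adjusted p = 3.38e-05). Replicate 2 was the highest of the AMF1β libraries, and the lowest of them was still above each DMSO library. ORE1 (AT5G39610), which drives age-dependent senescence, had 20.2, 13 and 13.7 FPKM in the AMF1β libraries, against 4.21, 2.95 and 4.605 FPKM in the DMSO libraries (log2 fold change 1.75, SE 0.50, limma adjusted p = 0.0172). The close relatives ATAF1 and ATAF2 had log2 fold changes of 0.75 and -0.04 and were not called. Of the HD-Zip I factors, HB7 and HB12 rose among 7 tested, with log2 fold changes of 1.99 and 1.35.

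The R2R3 MYB factors moved both ways, with 5 rises and 3 falls among 13 tested, and without AMF1β replicate 2 with 3 rises and 2 falls. MYB102 (AT4G21440) had 17.44, 17.82 and 12.7 FPKM in the AMF1β libraries, against 1.005, 2.42 and 1.32 FPKM in the DMSO libraries (log2 fold change 2.74, SE 0.27, limma adjusted p = 3.35e-06). MYB74 (AT4G05100), its relative, had 10.7, 16.2 and 6.37 FPKM in the AMF1β libraries, against 0.585, 0.964 and 0.623 FPKM in the DMSO libraries (log2 fold change 2.73, SE 0.34, limma adjusted p = 2.87e-05). Both were low in DMSO leaves and several-fold higher in each treated library. MYB60, which favours open stomata and is made in guard cells, fell to 3.06, 1.29 and 4.86 FPKM in the AMF1β libraries, against 8.02, 8.72 and 10.4 FPKM in the DMSO libraries (log2 fold change -1.4, SE 0.30, limma adjusted p = 0.00247). MYB20 and MYB30 fell as well, MYB30 at the fold threshold with a log2 fold change of -1.0. MYB96, a factor of wax synthesis, had a log2 fold change of 1.08 and an adjusted p of 0.0513, which missed the threshold.

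Some but not all of the genes of protective proteins rose. Of the 7 dehydrins, all tested, 5 rose (RAB18, LTI30, COR47, ERD10 and ERD14), and the median log2 fold change was 1.3. RAB18 (AT5G66400) had 279, 310.2 and 244 FPKM in the AMF1β libraries, against 46.7, 29.1 and 50.5 FPKM in the DMSO libraries (log2 fold change 2.72, SE 0.36, limma adjusted p = 4.05e-05). ERD14 (AT1G76180), one of the most abundant transcripts called, had 1718, 1349 and 1032 FPKM in the AMF1β libraries, against 626, 514 and 559 FPKM in the DMSO libraries (log2 fold change 1.24, SE 0.20, limma adjusted p = 0.000244). In both genes the groups were well apart. HIRD11 (AT1G54410), another dehydrin, was not called and had 3589, 3686 and 4226 FPKM in the AMF1β libraries, against 4277, 2834 and 4629.7 FPKM in the DMSO libraries. The 5 dehydrin calls stayed in every leave-one-out fit, and each of the 5 also lay above all 3 DMSO libraries of 24 h, as did 54.8% of the 498 genes that rose.

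Of the other LEA genes, 9 of 11 were tested and LEA7, LEA4-5, LEA18 and EM6 rose. EM6 (AT2G40170), best known from ripening seeds, had 5.76, 6.88 and 2.69 FPKM in the AMF1β libraries, against 0, 0 and 0.325 FPKM in the DMSO libraries (log2 fold change 2.4, SE 0.26, limma adjusted p = 4.99e-06). It was at 0 in DMSO replicates 1 and 2 and present in every treated library. In the list of RD29, KIN, COR15 and DREB genes, 10 of 20 tested rose and 0 fell, with a median log2 fold change of 0.94. RD20 (AT2G33380), a caleosin of lipid droplets, had 273, 413 and 162 FPKM in the AMF1β libraries, against 99.97, 39.6 and 34.3 FPKM in the DMSO libraries (log2 fold change 2.33, SE 0.35, limma adjusted p = 0.000127). COR15A (AT2G42540), which shields chloroplast membranes in the cold, was the most abundant gene called, with 6274, 6646 and 2723 FPKM in the AMF1β libraries, against 3254, 2306 and 1015 FPKM in the DMSO libraries (log2 fold change 1.3, SE 0.34, limma adjusted p = 0.0109), and here AMF1β replicate 3 lay within the DMSO range. RD29A had a log2 fold change of 1.26, and the call was lost without DMSO replicate 3. CBF3, a DREB factor of cold acclimation, rose with a log2 fold change of 1.1, and DREB2A was not called (0.32). The calls of CBF3 and COR15A were each lost under 5 alternatives. The count of rises in this list was 6 without DMSO replicate 3 and 7 to 11 without any other library. The KIN, COR15 and CBF genes have near-identical neighbours, and reads may have been split between the copies.

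The 4 genes of ABA hydroxylation rose, while none of the tested genes that make ABA passed the call. These CYP707A genes, whose products start the breakdown of ABA, were the calls among the 6 tested genes of catabolism and conjugation. CYP707A1 (AT4G19230) had 7.45, 6.62 and 4.44 FPKM in the AMF1β libraries, against 0.863, 0.614 and 0.405 FPKM in the DMSO libraries (log2 fold change 2.12, SE 0.28, limma adjusted p = 4.02e-05). CYP707A2 and CYP707A4 had log2 fold changes of 2.25 and 1.36. CYP707A3 (AT5G45340) had 6.65, 13.3 and 3.02 FPKM in the AMF1β libraries, against 2.16, 3.65 and 1.97 FPKM in the DMSO libraries (log2 fold change 1.11, SE 0.35, limma adjusted p = 0.0309), the only one of the 4 whose groups overlapped, and its call was lost under 8 alternatives. Of the ABA synthesis genes, 0 of 7 tested were called by limma (5 had an unadjusted p under 0.05), and NCED3 (AT3G14440), the step that sets the rate of synthesis under drought, had 7.25, 8.27 and 6.20 FPKM in the AMF1β libraries, against 7.35, 8.13 and 4.11 FPKM in the DMSO libraries (limma adjusted p = 0.715). ABA1, zeaxanthin epoxidase, had a log2 fold change of 0.76 without overlap, under the fold threshold. ABCG25, which exports ABA from vascular cells, rose among 6 tested transporters with a log2 fold change of 1.07, and no transporter was called without AMF1β replicate 1 or DMSO replicate 3.

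MAPKKK18 and MAPKKK17, kinases at the head of an ABA-induced cascade, rose among 8 tested MAP kinase genes, and 1 gene was called without AMF1β replicate 1, DMSO replicate 2 or DMSO replicate 3. MAPKKK18 (AT1G05100) had 3.78, 6.01 and 2.57 FPKM in the AMF1β libraries, against 1.06, 0.379 and 0.358 FPKM in the DMSO libraries (log2 fold change 1.65, SE 0.28, limma adjusted p = 0.000374). MPK3 was not called (log2 fold change 0.60). Among 15 tested CBL and CIPK genes of calcium signalling only CIPK25 was called, with a log2 fold change of 1.38, while CIPK7 had 0.46 without a call. None of that list was called without DMSO replicate 3, and 2 were called without AMF1β replicate 3 or DMSO replicate 2.

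Several genes of sugar and amino acid metabolism changed. ERD5 (AT3G30775), the proline dehydrogenase of mitochondria, had 19.0, 17.2 and 13.2 FPKM in the AMF1β libraries, against 2.62, 2.53 and 2.61 FPKM in the DMSO libraries (log2 fold change 2.27, SE 0.27, limma adjusted p = 1.29e-05). DMSO values were nearly the same in all libraries, and each AMF1β value was several times as high. P5CR, the last step of proline synthesis, fell with a log2 fold change of -1.08, and P5CS1, the first step, was not called, with AMF1β replicate 2 above and the other AMF1β libraries inside the DMSO range. GOLS2 and GOLS1, galactinol synthases that feed raffinose, and SIP2, an α-galactosidase that breaks raffinose down, rose with log2 fold changes of 1.99, 1.28 and 1.49. The call of GOLS1 was lost under 11 of the alternatives. LKR, the first enzyme of lysine breakdown, and ALDH7B4, an aldehyde dehydrogenase induced by drying, were the calls among 13 genes of lysine and branched-chain amino acid breakdown. ALDH7B4 (AT1G54100) had 144, 184 and 117 FPKM in the AMF1β libraries, against 41.9, 26.0 and 30.6 FPKM in the DMSO libraries (log2 fold change 2.14, SE 0.30, limma adjusted p = 7.08e-05). SWEET12, SWEET13 and SWEET4, sugar exporters of the plasma membrane, rose among 16 tested sugar transporters, with 5 rises without DMSO replicate 1 and 1 without DMSO replicate 3. SWEET12 (AT5G23660), which loads sucrose towards the phloem, had 78.6, 65.2 and 73.4 FPKM in the AMF1β libraries, against 29.1, 22.9 and 22.2 FPKM in the DMSO libraries (log2 fold change 1.52, SE 0.24, limma adjusted p = 0.000194), with tight groups and no overlap. None of the 15 starch breakdown genes was called by limma, with 5 at an unadjusted p under 0.05 and a median log2 fold change of 0.53. Of 18 nitrogen assimilation genes only ASN2, an asparagine synthetase, was called, and it fell (log2 fold change -1.42), as did 3.28% of all genes tested. The falls in this list numbered 3 without AMF1β replicate 2 and 2 without AMF1β replicate 3 or DMSO replicate 1.

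Some genes of chlorophyll breakdown rose, while the light-harvesting genes were mostly not called. PPH (AT5G13800), which removes the phytol tail of pheophytin, had 109, 79.1 and 92.5 FPKM in the AMF1β libraries, against 31.6, 20.9 and 27.0 FPKM in the DMSO libraries (log2 fold change 1.79, SE 0.31, limma adjusted p = 0.000414). PAO (AT3G44880), which opens the ring of pheophorbide, had 103, 130.3 and 87.6 FPKM in the AMF1β libraries, against 41.0, 39.7 and 33.6 FPKM in the DMSO libraries (log2 fold change 1.45, SE 0.25, limma adjusted p = 0.000404). The groups did not overlap in either gene. SGR1 and SGR2 (AT4G11910), which act on the magnesium of chlorophyll, SAG13 and SAG20 completed the 6 rises among 14 tested genes of chlorophyll breakdown and senescence. The median log2 fold change of this list was 1.01. NYC1 and NOL, the chlorophyll b reductases, were not called (0.33 and 0.17). Of 27 antenna, photosystem and Rubisco genes, 1 fell and 0 rose, while 3.28% of all genes tested fell. That gene was RBCS1B (AT5G38430), a small subunit of Rubisco, with 974, 1380.4 and 939 FPKM in the AMF1β libraries, against 4320.3, 4078 and 2314 FPKM in the DMSO libraries (log2 fold change -1.67, SE 0.36, limma adjusted p = 0.00297). It has close copies, and RBCS1A, RBCS2B and RBCS3B had log2 fold changes of -0.71, -0.45 and -0.44 without a call.

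Among 17 guard cell genes only AKS1 was called, and it rose, as did 2.69% of all genes tested. AKS1 (AT1G51140), a bHLH factor for the potassium channel KAT1, had 40.8, 33.9 and 28.7 FPKM in the AMF1β libraries, against 17.38, 14.0 and 10.4 FPKM in the DMSO libraries (log2 fold change 1.26, SE 0.22, limma adjusted p = 0.00055). KAT1 and the anion channel SLAC1 had log2 fold changes of 0.15 and 0.33. The guard cell genes thus had a median of 0.15, near that of all genes. Of 17 tested aquaporins 1 fell, while 3.28% of all genes tested fell. It was RD28 (AT2G37180), with 6.39, 22.5 and 5.78 FPKM in the AMF1β libraries, against 64.3, 40.0 and 10.8 FPKM in the DMSO libraries (log2 fold change -1.58, SE 0.53, limma adjusted p = 0.0409). Its AMF1β replicate 2 lay inside the DMSO range, and the call was lost under 8 alternatives. The count of aquaporins that fell was 5 without AMF1β replicate 2, 6 without DMSO replicate 3 and 0 without any other.

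**Figure D3:**
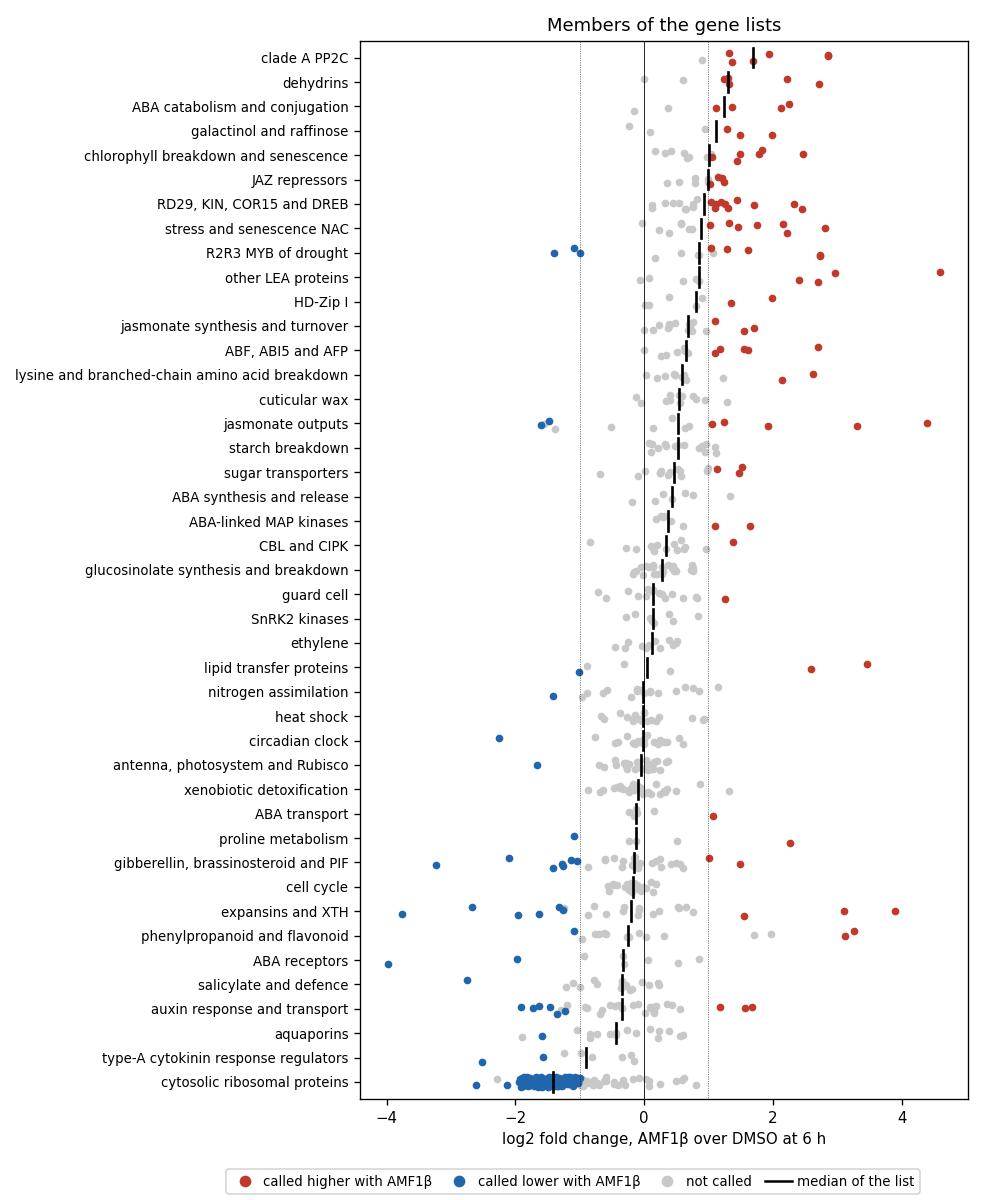
Log2 fold change, AMF1β over DMSO at 6 h, of the tested members of 42 gene lists and the ribosomal protein list, 1 row a list, each dot a gene and each black bar the median of the list. The PP2C, dehydrin and ABA catabolism lists have medians of 1.70, 1.3 and 1.24, and the ribosomal protein list, with a median of -1.41, lies lowest. AT3G08520 is not drawn.

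Cell wall genes split into a few strong rises and several falls. Of 24 tested expansin and XTH genes, EXPA16, XTH24 and EXPA4 rose and EXPA1, EXPA5, EXPA8, EXPA11, EXPA15 and XTH31 fell. EXPA11 (AT1G20190) had 8.32, 17.7 and 14.6 FPKM in the AMF1β libraries, against 42.3, 40.2 and 44.4 FPKM in the DMSO libraries (log2 fold change -1.63, SE 0.38, limma adjusted p = 0.00513). XTH31 (AT3G44990), an enzyme that acts on xyloglucan, had 35.5, 16.8 and 21.0 FPKM in the AMF1β libraries, against 191, 213 and 88.6 FPKM in the DMSO libraries (log2 fold change -2.67, SE 0.61, limma adjusted p = 0.00443). The groups did not overlap in either. With DMSO replicate 3 as the only control 2 of these 6 falls stayed called, while all 3 rises did. Beside the DMSO libraries of 24 h, all 3 rises and 4 of the 6 falls lay beyond every library, against 54.8% of all rises and 42.2% of all falls.

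The auxin list had 3 rises and 6 falls among 32 tested genes, beside 2.69% and 3.28% of all genes tested. The falls were mainly SAUR genes, small auxin-induced proteins of elongating tissue: SAUR14, SAUR15, SAUR20, SAUR21 and SAUR24, with IAA5. SAUR21 (AT5G18030) had 3.68, 2.98 and 5.86 FPKM in the AMF1β libraries, against 16.8, 17.7 and 19.6 FPKM in the DMSO libraries (log2 fold change -1.92, SE 0.42, limma adjusted p = 0.00297). SAUR14 (AT4G38840), the most abundant of them, had 39.2, 46.9 and 51.1 FPKM in the AMF1β libraries, against 135, 103 and 117 FPKM in the DMSO libraries (log2 fold change -1.36, SE 0.29, limma adjusted p = 0.00246). All DMSO values were above all AMF1β values in both. SAUR19 to SAUR24 are near-identical neighbours on chromosome 5, so their reads may be shared. GH3.5 and GH3.6, which tie auxin to amino acids, rose, GH3.5 (AT4G27260) with 3.42, 4.25 and 3.33 FPKM in the AMF1β libraries, against 0.308, 0.545 and 0.511 FPKM in the DMSO libraries (log2 fold change 1.68, SE 0.27, limma adjusted p = 0.000227).

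Among 30 tested genes of gibberellin, brassinosteroid and PIF signalling, 2 rose and 7 fell, beside 2.69% and 3.28% of all genes tested. Without any 1 library the falls numbered 4 to 6, the lowest without AMF1β replicate 1. GASA6 (AT1G74670) had 1.79, 3.52 and 9.66 FPKM in the AMF1β libraries, against 34.0, 28.0 and 109 FPKM in the DMSO libraries (log2 fold change -3.23, SE 0.76, limma adjusted p = 0.00533), and GASA4 (AT5G15230) had 9.57, 8.09 and 23.8 FPKM in the AMF1β libraries, against 53.3, 54.3 and 61.0 FPKM in the DMSO libraries (log2 fold change -2.1, SE 0.40, limma adjusted p = 0.00107). Both are small gibberellin-induced peptides, and AMF1β replicate 3 was the highest treated library in both without reaching the DMSO range. PRE1, PRE5, PRE6 and BEE2, bHLH proteins that promote elongation, fell with log2 fold changes between -1.42 and -1.05. GA3OX1, which makes active gibberellin, fell with a log2 fold change of -1.26. In the other direction GID1B (AT3G63010), a gibberellin receptor, had 10.7, 10.06 and 9.57 FPKM in the AMF1β libraries, against 3.49, 3.20 and 2.31 FPKM in the DMSO libraries (log2 fold change 1.48, SE 0.29, limma adjusted p = 0.00131), and RGL3, a DELLA repressor, rose with a log2 fold change of 1.01. The calls of BEE2 and GA3OX1 were lost under 8 and 7 alternatives.

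Of 8 tested type-A response regulators, which are induced by cytokinin, ARR6 and ARR7 fell. ARR6 (AT5G62920) had 1.11, 4.14 and 3.84 FPKM in the AMF1β libraries, against 27.3, 21.1 and 14.8 FPKM in the DMSO libraries (log2 fold change -2.52, SE 0.59, limma adjusted p = 0.00492). ARR7 (AT1G19050) had 11.02, 10.4 and 16.9 FPKM in the AMF1β libraries, against 45.6, 40.7 and 31.5 FPKM in the DMSO libraries (log2 fold change -1.56, SE 0.35, limma adjusted p = 0.00407). The groups were apart in both, and both calls were lost with DMSO replicate 3 as the only control, which left 1 DMSO library. Neither lay beyond all DMSO libraries of 24 h, as 42.2% of all falls did. Of 21 tested cell cycle genes none was called by limma (1 had an unadjusted p under 0.05), and their median log2 fold change was -0.17.

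The largest single group among the falls was that of the ribosomal proteins of the cytosol, a list formed by gene description after the values had been seen and given here without a test. Of 177 genes 159 were tested, 122 fell and 0 rose, beside 3.28% of all genes tested, and they made up 20.1% of all falls. Their median log2 fold change was -1.41, and 151 of the 159 were below 0. AT3G11120, an L41 protein whose promoter is printed above, had 159, 131 and 127 FPKM in the AMF1β libraries, against 1284, 671 and 704 FPKM in the DMSO libraries (log2 fold change -2.6, SE 0.41, limma adjusted p = 0.000171). AT2G20450, an L14 protein, had 24.7, 31.4 and 25.2 FPKM in the AMF1β libraries, against 124, 115 and 125 FPKM in the DMSO libraries (log2 fold change -2.13, SE 0.29, limma adjusted p = 5.56e-05). AT5G56670, an S30 protein, had 91.2, 88.8 and 84.7 FPKM in the AMF1β libraries, against 379, 341 and 306 FPKM in the DMSO libraries (log2 fold change -1.94, SE 0.20, limma adjusted p = 3.35e-06). In these genes the treated libraries were close to each other and the DMSO libraries several times higher. The summed FPKM of the 177 genes was 8994 to 9948 in the AMF1β libraries and 27351 to 28026 in the DMSO libraries, a ratio of 0.340.

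The DMSO libraries of 6 h carried the highest ribosomal sums of the 29 libraries, since the other 26 lay between 7709 and 21548 FPKM. Beside the DMSO libraries of 24 h, whose sums were 9215 to 18478 FPKM, 43 of the 122 genes that fell (35.2%) lay below every library, as did 213 of the 485 other genes that fell (43.9%). ABA and AMF4, set against these same DMSO libraries, gave median log2 fold changes of -1.14 and -1.44 over the tested genes of the list. The controls are shared, so these medians do not stand apart from that of AMF1β. Whether the level of the controls has a part in the difference was not tested. The count of falls stayed between 118 and 123 when single libraries were left out and was 108 with DMSO replicate 3 as the only control. Close copies of most ribosomal proteins are encoded by several genes, and reads may be shared among them.

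**Figure D4:**
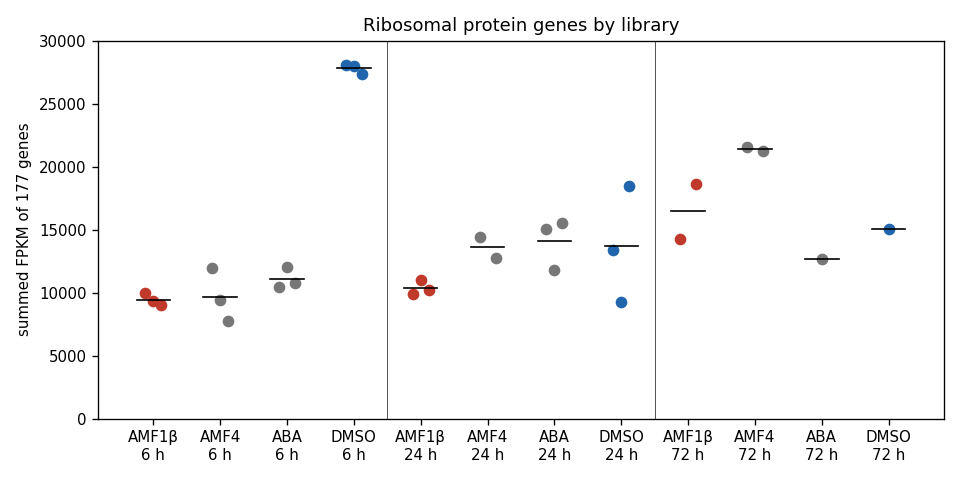
Summed FPKM of 177 cytosolic ribosomal protein genes (vertical axis, from 0) in each library of the 12 groups (within 6, 24 and 72 h in the order AMF1β, AMF4, ABA and DMSO), with black lines for the group means. The 3 AMF1β libraries of 6 h lie between 8994 and 9948, the 3 DMSO libraries of 6 h between 27351 and 28026, and no other library exceeds 21548.

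Jasmonate genes rose in part. Of 14 tested genes of jasmonate outputs 5 rose and 2 fell, and left-out libraries gave 2 to 5 rises and 0 to 2 falls. VSP2 (AT5G24770), a storage protein that is a common marker of jasmonate, had 205, 1262 and 173 FPKM in the AMF1β libraries, against 51.6, 2.84 and 23.0 FPKM in the DMSO libraries (log2 fold change 4.40, SE 0.85, limma adjusted p = 0.00119). VSP1 (AT5G24780) had 19.7, 219.8 and 17.35 FPKM in the AMF1β libraries, against 14.3, 0.602 and 2.54 FPKM in the DMSO libraries (log2 fold change 3.31, SE 0.82, limma adjusted p = 0.00738). In both, AMF1β replicate 2 was several times the other AMF1β libraries, and DMSO replicate 1 was the highest control. VSP1 lost its call without AMF1β replicate 2 or DMSO replicate 2. NATA1 (AT2G39030), a jasmonate-induced acetyltransferase, had the same order, with 64.6, 284 and 45.9 FPKM in the AMF1β libraries, against 21.4, 1.91 and 8.98 FPKM in the DMSO libraries (log2 fold change 3.46, SE 0.73, limma adjusted p = 0.00241). MYC2 (AT1G32640), the main transcription factor of the pathway, had 79.4, 63.1 and 82.4 FPKM in the AMF1β libraries, against 52.0, 30.7 and 18.6 FPKM in the DMSO libraries (log2 fold change 1.23, SE 0.26, limma adjusted p = 0.00241), without a high replicate 2. Of 16 tested genes of jasmonate synthesis, LOX2, AOC1 and ACX1 rose and 0 fell, with 6 rises without DMSO replicate 1 and 2 without DMSO replicate 3. VSP1, VSP2, NATA1 and LOX2 lost their calls when the fit held only the 6 libraries of this comparison. Of 10 tested JAZ repressors JAZ5, JAZ7, JAZ9 and JAZ10 rose, with a median of 1.00 for the list. The count of JAZ rises was 1 without AMF1β replicate 1 or DMSO replicate 3 and 3 to 5 without any other library, and none of the 4 lay beyond all DMSO libraries of 24 h, as 54.8% of all rises did. JAZ10 (AT5G13220) had 2.32, 5.45 and 1.55 FPKM in the AMF1β libraries, against 2.04, 0.680 and 0.266 FPKM in the DMSO libraries (log2 fold change 1.03, SE 0.36, limma adjusted p = 0.04998), with overlapping groups. HEL and ORA59, of the ethylene branch, fell with log2 fold changes of -1.48 and -1.6, and each call was lost under 7 alternatives.

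PR1 (AT2G14610), the usual marker of salicylate, had 0.533, 0.165 and 0.936 FPKM in the AMF1β libraries, against 3.76, 9.44 and 20.5 FPKM in the DMSO libraries (log2 fold change -2.76, SE 0.66, limma adjusted p = 0.00599). It was the only call among 17 tested genes of salicylate and defence, whose median log2 fold change was -0.34. PR2, PR5 and WRKY70 were not called (-0.35, -0.99 and -0.77). Among 12 tested ethylene genes, 29 detoxification genes, 25 glucosinolate genes, 12 cuticular wax genes and 18 heat shock genes there were 0 calls by limma, and 3, 3, 2, 3 and 3 of them, in this order, had an unadjusted p under 0.05.

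MYB75 (AT1G56650), a MYB factor that switches on anthocyanin synthesis, had 181, 87.3 and 97.6 FPKM in the AMF1β libraries, against 29.7, 8.76 and 7.09 FPKM in the DMSO libraries (log2 fold change 3.12, SE 0.63, limma adjusted p = 0.00172). Its relative MYB90 (AT1G66390) had 55.2, 4.28 and 19.2 FPKM in the AMF1β libraries, against 1.54, 0.739 and 0.543 FPKM in the DMSO libraries (log2 fold change 3.26, SE 0.94, limma adjusted p = 0.0186). No library overlapped in either, but AMF1β replicate 2 was low in MYB90 and the call was lost under 5 alternatives. The enzymes DFR and LDOX were high in AMF1β replicates 1 and 3 and low in replicate 2: DFR (AT5G42800) had 5.33, 0.398 and 10.8 FPKM in the AMF1β libraries, against 0.499, 0.247 and 0.594 FPKM in the DMSO libraries (limma adjusted p = 0.369). CHS, chalcone synthase, had a log2 fold change of -0.25 without a call. PAL1, at the head of the pathway, fell (-1.09), and its call was lost under 5 alternatives. LTP3 and LTP4, lipid transfer proteins with near-identical sequence, rose and LTP5 fell. LTP3 (AT5G59320) had 1166, 1657 and 584 FPKM in the AMF1β libraries, against 274, 154 and 119 FPKM in the DMSO libraries (log2 fold change 2.6, SE 0.40, limma adjusted p = 0.000151), with AMF1β replicate 2 highest and no overlap.

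PYL2 and the clock gene LHY were called lower, with controls that differed widely among themselves. PYL2 (AT2G26040) had 0.997, 1.94 and 1.42 FPKM in the AMF1β libraries, against 209, 67.8 and 2.89 FPKM in the DMSO libraries (log2 fold change -3.98, SE 0.92, limma adjusted p = 0.00454). DMSO replicate 3 was close to the treated libraries, and the other DMSO libraries were far above them. LHY (AT1G01060), a factor of the morning clock, had 0.630, 0.560 and 0.749 FPKM in the AMF1β libraries, against 27.9, 10.6 and 0.436 FPKM in the DMSO libraries (log2 fold change -2.25, SE 0.61, limma adjusted p = 0.0129), with DMSO replicate 3 below every AMF1β library. CCA1 (AT2G46830), its partner, had 6.36, 6.19 and 5.42 FPKM in the AMF1β libraries, against 25.2, 9.32 and 2.24 FPKM in the DMSO libraries and was not called. RVE8 (AT3G09600), also a morning factor, had 1.86, 1.93 and 2.1 FPKM in the AMF1β libraries, against 7.87, 4.14 and 1.79 FPKM in the DMSO libraries (limma adjusted p = 0.0474). In all of these genes DMSO replicate 1 was the highest library and DMSO replicate 3 was far lower, and with DMSO replicate 3 as the only control neither PYL2 nor LHY was called. At 24 h PYL2 was at 63.4, 134 and 70.0 FPKM with AMF1β and at 127, 62.1 and 134 FPKM with DMSO. The hour of sampling is not in the labels, and its part in these differences was not tested. LHY was the only call among 21 tested clock genes, with 3 falls without DMSO replicate 3 and 0 without DMSO replicate 1 or 2.

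The AMF1β libraries were compared with those of ABA, sprayed at the same dose and time, to see where the mimic and the hormone differ. Of 18521 genes, 19 were higher with AMF1β (0.103%) and 49 lower (0.265%), and 2075 had an unadjusted p under 0.05. AT3G02480, a LEA protein, had 49.5, 82.6 and 52.0 FPKM in the AMF1β libraries, against 717, 282 and 659.7 FPKM in the ABA libraries (log2 difference -3.08, SE 0.65, limma adjusted p = 0.032). It was thus induced by AMF1β against DMSO (log2 fold change 4.1) and lower than with ABA. Of the 49 genes lower than with ABA, 14 had risen against DMSO, 5 had fallen and 30 were not called against DMSO.

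XTH25 (AT5G57550), a wall enzyme, had 1.87, 7.88 and 1.45 FPKM with AMF1β and 50.2, 20.9 and 32.4 FPKM with ABA (log2 difference -3.08, SE 0.53, limma adjusted p = 0.006), and SWEET15 (AT5G13170), a sugar exporter of senescing leaves, had 1.32, 1.67 and 1.47 FPKM with AMF1β and 19.1, 14.1 and 28.5 FPKM with ABA (log2 difference -3.06, SE 0.63, limma adjusted p = 0.026). Against DMSO neither was called, with log2 fold changes of 1.48 and 0.66. WRKY70 and WRKY54, WRKY factors of salicylate responses, were also lower with AMF1β than with ABA, WRKY70 (AT3G56400) at 32.9, 76.9 and 21.8 FPKM against 262, 172 and 177 FPKM (log2 difference -2.36, SE 0.48, limma adjusted p = 0.0256). The groups were apart in these genes. In the other direction the defensin PDF1.2 (AT5G44420) had 93.8, 324 and 123 FPKM with AMF1β and 8.97, 5.04 and 7.62 FPKM with ABA (log2 difference 4.28, SE 0.68, limma adjusted p = 0.00376). HEL (AT3G04720) had 30.7, 85.4 and 44.9 FPKM with AMF1β and 15.8, 5.90 and 6.64 FPKM with ABA (log2 difference 2.38, SE 0.48, limma adjusted p = 0.022). GSTF2 (AT4G02520), a glutathione transferase, had 169.8, 194 and 244 FPKM with AMF1β and 66.8, 40.2 and 45.1 FPKM with ABA (log2 difference 2.0, SE 0.38, limma adjusted p = 0.0142). None of these 3 genes overlapped between AMF1β and ABA. PDF1.2, which has near-identical copies such as PDF1.2C, was not called against DMSO, where the libraries held 306, 146 and 248 FPKM. The 95% interval of the difference between AMF1β and ABA lay within 2-fold for 233 of the 498 genes that rose and 434 of the 607 that fell. It excluded 0 for 159 of the 498 and 89 of the 607. These genes were chosen with the same AMF1β libraries. The counts of 19 and 49 rest on the libraries used, since leaving out single libraries gave 7 to 50 genes higher and 15 to 138 lower.

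AMF4 carries more fluorine than AMF1β on the same ring and was sprayed at the same dose. Of 18521 genes 0 were called between the compounds at 6 h by limma, 1357 had an unadjusted p under 0.05, and the smallest adjusted p was 0.156. The median 95% interval was the estimate ± 0.40 on the log2 scale. The interval lay within 2-fold for 323 of the 498 genes that rose and 484 of the 607 that fell, and it excluded 0 for 54 and 14 of them. Here too the genes were chosen with the same AMF1β libraries. AMF4 replicates 1 and 2 held 3160 and 1806 transposable element genes above 0, against 196 to 964 in the rest of the series. A fit without both of them keeps only AMF4 replicate 3, too few libraries to decide whether they matter. Without AMF4 replicate 3 the counts of called genes were 9 higher and 119 lower.

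At 24 h after the spray the AMF1β libraries differed from DMSO in fewer genes, with 194 higher (1.05%) and 147 lower (0.794%). Of the 498 genes that rose at 6 h, 89 were also called higher at 24 h (17.9%), and of the 607 that fell, 45 were also called lower (7.41%). The median log2 fold change at 24 h was 0.59 for the first set and -0.43 for the second. Both sets were chosen for a large effect at 6 h, and medians nearer to 0 at 24 h can arise from that choice alone. LEA7 was at 38.3, 48.3 and 27.9 FPKM with AMF1β and 2.08, 6.31 and 3.91 FPKM with DMSO at 24 h. EXPA16 was at 99.8, 109 and 139 FPKM with AMF1β and 19.2, 15.1 and 11.3 FPKM with DMSO. In neither gene did the groups of 24 h overlap. VSP2 was at 12.5, 33.1 and 5.58 FPKM with AMF1β and 15.1, 5.15 and 6.59 FPKM with DMSO, which overlapped. SAUR21 was at 6.59 to 13 FPKM with AMF1β and 5.89 to 35.9 FPKM with DMSO, which also overlapped, with DMSO spread widely.

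The difference between the effects at 24 h and at 6 h was tested as an interaction, and it was called for 156 genes with a higher effect at 24 h (0.842%) and 74 with a lower one (0.4%). Of the genes that fell at 6 h, 96 had a higher effect at 24 h, and of those that rose, 52 had a lower one. Both sets were chosen by the effect at 6 h, which this difference subtracts. A split in these directions can arise from that choice alone. Ribosomal proteins, a list formed after the values had been seen, gave 42 of the genes with a higher effect at 24 h. Their median log2 fold change was -0.25 at 24 h, with 0 rises and 0 falls among 159, beside 1.05% and 0.794% of all genes tested. Against DMSO at 24 h, 3 of 7 dehydrins, 3 of 7 PP2Cs and 0 of 10 JAZ genes were called higher, beside the same 1.05%. The difference between times was called for 0 dehydrins and 0 PP2Cs. It was called lower at 24 h for 2 JAZ genes, beside 0.4% of all genes tested. The counts of 156 and 74 were loose, since leaving out single libraries moved the 156 to between 1 and 406 and the 74 to between 0 and 202.

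**Figure D5:**
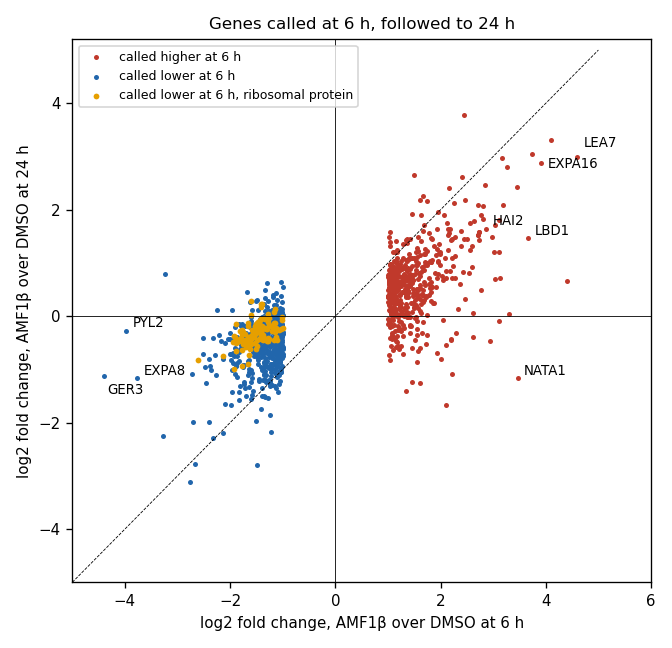
Log2 fold change, AMF1β over DMSO, at 24 h (vertical axis) against that at 6 h (horizontal axis) for the genes called at 6 h, with ribosomal protein genes in orange and a dashed line for equal effects. Most points lie nearer to 0 at 24 h than at 6 h, with medians of 0.59 for the genes called higher and -0.43 for those called lower. The genes were chosen by their effect at 6 h, from which such a shift can arise alone.

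The promoter windows were searched for the elements named at the start and for others of drought and growth. The ABA response element stood in 18.3% of the windows of genes that rose, in 3.96% of those that fell and in 7.62% of all 18355 windows of genes tested. Among the 83 genes that rose over 4-fold it stood in 31.3%. The G-box, CACGTG, which overlaps part of these matches, stood in 19.1%, 4.29% and 7.57%. The dehydration response element, ACCGAC or GCCGAC, was in 13.1% of the windows of genes that rose and 8.12% of all, and the W-box of WRKY factors, TTGACC or TTGACT, in 23.9% and 28.0%. The site II element was in 69.8% of the ribosomal protein windows, in 33.9% of the windows of the other genes that fell and in 22.5% of all windows without the ribosomal genes. These shares are descriptions of letters in 250 bases and were not tested.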

How the data were processed

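RNA was extracted with TRIzol from leaves and sequenced on an Illumina instrument. Reads were mapped to TAIR10 with TopHat2 and FPKM values were computed with Cufflinks by the authors, who deposited 1 FPKM table with a column for each library (versions not given in the sources used here). Whether reads were counted by strand is not given in the sources used here. All 29 library columns matched labels, and 0 columns were unassigned. The study's methods speak of duplicate biological replicates, while 3 libraries of each group of 6 h are labelled and were used.

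FPKM + 1 was log2-transformed, genes with at least 1 FPKM in at least 2 libraries were kept, and limma 3.58.1 in R 4.3.3 was fitted with a mean for each of 12 groups and a trended spread (17 residual and 3.82 prior degrees of freedom). Tests were two-sided, with Benjamini-Hochberg adjustment over all 18521 genes. The calling step was tested on simulated data. Read counts are unknown, so no counting interval is given and values near 0 are imprecise.

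The members and lists were chosen with earlier results of these data known, and the ribosomal list was added after the values were seen. Named genes are those the study names at a later time, the 20 largest non-overlapping calls in each direction, list members, the 10 largest differences from ABA and between times in each direction, and the 10 most abundant calls in each direction. Others, such as AT2G20450, AT5G56670 and AT3G50825, were picked after their values were seen.

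Promoters are the 250 bases before RefSeq gene starts in TAIR10.1, a later release than the authors' build, matched by gene identifier. Gene symbols came from RefSeq, in which 32817 identifiers were found. Alternatives were another pseudocount, filters, scalings, spread models, call rules, a replicate block, libraries left out in turn and, chosen after seeing the data, DMSO replicate 3 as the lone control and a fit without 2 AMF4 libraries. Columns of 72 h entered the filter, the spread and the ranges given over all libraries, and no test compared them.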

Additional observations from a re-analysis of the deposited data

Results flagged for a closer look

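The effect of AMF1β differed between 24 h and 6 h, by the interaction test in limma with adjustment over all genes, for 156 genes with a higher effect at 24 h and 74 with a lower one. The values below are the log2 effect at 24 h minus that at 6 h, for the 10 genes with the largest difference in each direction. UGT74E2, a glucosyltransferase, had 4.362 and AT5G51440, a small heat shock protein, 3.668. HDT4 had 2.128, AT5G16980 2.096, AT3G51870 2.082 and AT1G07400, another small heat shock protein, 1.926. AT1G15250, a ribosomal protein, had 1.897, HSP70 1.801, ROC2 1.79 and WHY3 1.788. In the other direction NATA1 had -4.626, CSLA01 -3.769, XPL1 -3.397 and AtCP2 -3.005. FLR1 had -2.813, TBL26 -2.75, ATCSLA15 -2.683, ARGAH2 -2.655, JR1 -2.61 and LOX2 -2.421. NATA1, ARGAH2, JR1 and LOX2 are known as jasmonate-induced genes. The counts moved strongly when single libraries were left out, as given above.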

How the results depend on the processing

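The counts of genes that rose and fell against DMSO at 6 h, 498 and 607, were within 1.5 times of these under the other pseudocount, filters, scalings and spread models, and left-out libraries gave 404 to 588 and 524 to 642. With no threshold on the fold change they were 1923 and 1647. With DMSO replicate 3 as the lone control, assumed to vary like the other groups and chosen after seeing the data, they were 658 and 470, with 708 of the 1105 calls shared (64.1%) and 0 opposite. LHY reversed there to a log2 fold change of 0.20 (limma adjusted p = 0.784) and PYL2 was at -0.68 (0.644). Against ABA, left-out libraries gave 7 to 50 genes higher and 15 to 138 lower, the libraries of the same time only 6 and 11, and no filter on low values 30 lower. Against AMF4, left-out libraries gave 0 to 9 higher and 0 to 119 lower. At 24 h they gave 113 to 213 higher and 65 to 186 lower. For the effect at 24 h minus that at 6 h they gave 1 to 406 and 0 to 202, and no filter gave 89 and 30. Correlations of same-numbered deviations were 0.0474, 0.0208 and 0.184, and 2 of 3 AMF1β and 2 of 3 DMSO libraries were closest to their own number. With 3 libraries a group this cannot show whether replicate numbers pair the samples. With the replicate block the counts were 499 and 605, and 1092 of the 1105 calls were shared. The block gave 23 and 60 against ABA, 0 and 0 against AMF4, 195 and 151 at 24 h, and 120 and 63 for the difference between times. Of 179 named calls, 90 held under every alternative, 89 were lost under at least 1, and LHY alone reversed. Depth is unknown in reads, and small differences of genes near 1 FPKM were not detectable.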
